A study of Mus musculus with 32 samples.

Results

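Germinal centre (GC) B cells were set against untreated splenic B cells of the mouse on 2-colour Agilent expression arrays, using 6 of the 32 arrays of the study. The members were chosen by their labels, as the arrays of normal cells that carry either state. The GC side is GC B cells of ATMWT mice immunised with sheep red blood cells, on 2 arrays (repeats 2 and 3). The untreated side is B cells from the spleens of ATMWT.CD3epsilonKO mice on 1 array and of ATMKO.CD3epsilonKO mice on 3 arrays (repeats 1, 2 and 3). ATMWT and ATMKO carry or lack the kinase ATM, and CD3epsilonKO mice lack the CD3 epsilon chain that T cell development needs. The study profiled these cells beside lymphoma cell lines of ATMKO.CD3epsilonKO mice, and this comparison asks what sets the GC state apart from the unstimulated one. The GC donors are not labelled CD3epsilonKO, so cell state and the Cd3e allele cannot be told apart, and 3 of the 4 untreated arrays come from ATMKO mice. The labels used here give neither the tissue of the GC cells, nor the purification of either population, nor the age and sex of the mice.

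A germinal centre forms in a follicle of the spleen or a lymph node when B cells meet antigen and T cell help. In its dark zone the B cells divide rapidly and their antibody genes are mutated; in its light zone they test the new receptors on antigen held by follicular dendritic cells and compete for T cell help. The repressor BCL6 sets this program and holds back plasma cell differentiation. A resting follicular B cell is kept out of cycle by FOXO and KLF2 factors and recirculates by means of receptors such as CCR7 and S1PR1.

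Each array held a sample in the red channel and a common pool in the green channel, so every value here is a log2 ratio of sample over pool (a level relative to the pool), and a difference is GC minus untreated on that log2 scale, positive when higher in GC B cells. Differences are given ± SE of the limma contrast, with n = 1 GC sample and n = 2 untreated samples throughout. The pool combined tumours, GC B cells and splenic B cells, both ATMWT and ATMKO and both unstimulated and anti-IgM-stimulated, so GC RNA sits on both sides of the ratio. GC repeat 1 was left out: its values correlated at r = 0.087 and 0.088 with those of repeats 2 and 3 over 31434 probes, and the scanner software's correlation of observed with expected spike-in ratios was 0.404 on it, against 0.978 to 0.997 on the other normal arrays. Repeats 2 and 3 correlated at r = 0.982 and were averaged, since the study names GC repeats as technical without saying which. They count as 1 sample, and the 3 ATMKO arrays (r = 0.781 to 0.971) were likewise averaged, which leaves 1 GC sample against 2 untreated samples. On the 6 arrays 53.5% to 60.7% of red spots were well above background. Pan B cell markers were well above background on all 6, and markers of T cells, NK cells, neutrophils, macrophages and red cells were too on the untreated arrays, as given at the end.

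The difference was tested with limma across 22142 genes in a model of 7 normal samples (11 arrays). The spread comes from the untreated pair and from 1 pair of anti-IgM-stimulated samples (ATMWT and ATMKO, 6 h), which give 1 residual degree of freedom each, 2 in all; the other samples each have a mean of their own. The labels of that ATMWT anti-IgM sample give both 3 and 6 hours, and it was placed at 6 h by its title. Each pair sets an ATMWT against an ATMKO sample on other slides, so the spread holds the genotype and slide differences. The GC sample has no spread of its own in the model and is assumed to vary like the others. Leaving out either untreated sample removes the untreated pair, and the spread then comes from the anti-IgM pair alone (1 residual degree of freedom). For such fits only the size of a difference is read. At a Benjamini-Hochberg adjusted p of 0.05, 9174 genes (41.4% of those tested) passed, 3957 (17.9%) higher and 5217 (23.6%) lower in GC B cells. A count of list members is read below against those background shares. The median difference over all genes was -0.03. Centring each array on its median in place of loess moved that median to 0.12 and turned the split to 4742 higher and 3350 lower, and the scanner's own log ratio gave 4604 higher and 4297 lower. Of the 9174 genes, 9141 had both GC arrays on 1 side of all 4 untreated arrays, as did 72.3% of all genes tested (33.3% with GC higher and 38.9% with GC lower).

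**Figure D1:**
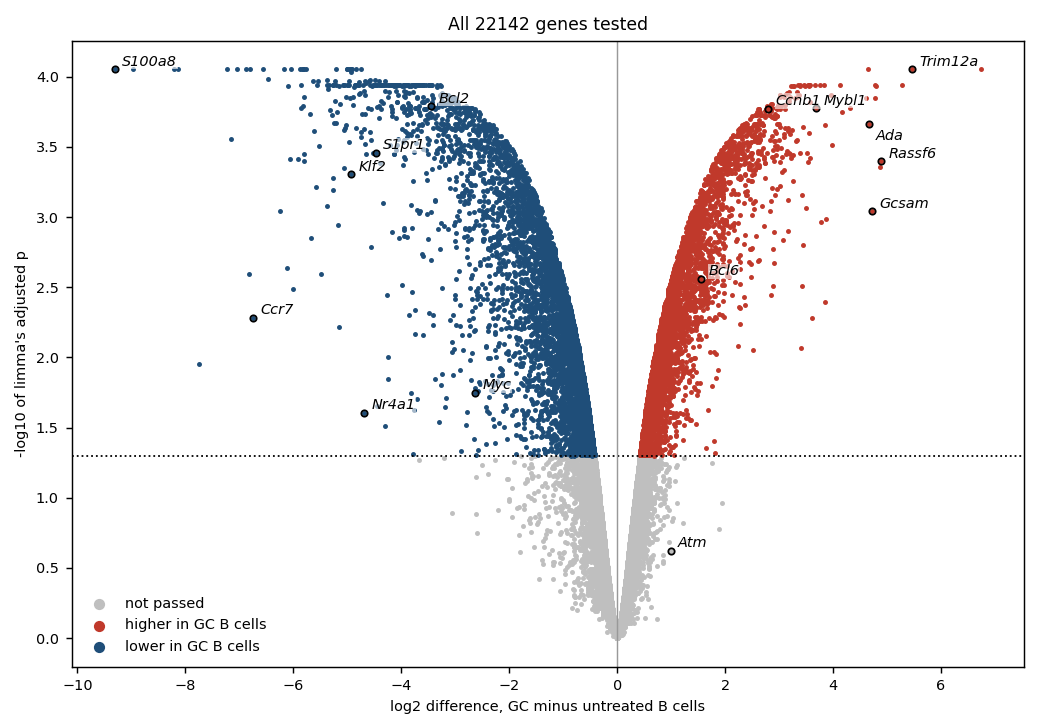
Each of the 22142 genes tested is a point, with the log2 difference, GC minus untreated B cells, on the x axis and -log10 of limma's adjusted p on the y axis. The dotted line marks an adjusted p of 0.05; 3957 genes passed on the higher side (red) and 5217 on the lower side (blue), and the lower side reaches farther from 0.

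The genes that the strain labels name were read first. Cd3e, the deleted subunit of the T cell receptor complex, lay at -1.91 and -1.88 on the GC arrays, against 0.98 on the ATMWT.CD3epsilonKO array and 0.59, 0.93 and 0.84 on the ATMKO.CD3epsilonKO arrays. The signal was higher in the strains labelled as lacking the gene, and the difference was -2.77 ± 0.15 (SE, limma adjusted p = 0.00022). The files do not say whether the probe lies in the deleted part, and other T cell genes moved the same way, as described below. Atm lay at 0.99 and 1.09 on the GC arrays, against 0.42 on the ATMWT array and -0.24, -0.41 and -0.36 on the ATMKO arrays. GC levels were above all untreated ones, and the ATMWT array stood above the 3 ATMKO arrays. The difference of 0.99 ± 0.60 did not pass (limma adjusted p = 0.238), and without the ATMWT array it was 1.37.

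Genes that define GC B cells were higher in the GC samples. Of the 29 tested members of the germinal centre identity list 18 passed as higher and 4 as lower, with a median difference of 1.55. Gcsam, a signalling adaptor named for germinal centres (probe at chr16:45622921-45622980, mm9), lay at 2.30 and 2.34 on the GC arrays, against -2.07 on the ATMWT array and -2.57, -2.78 and -2.85 on the ATMKO arrays. Its difference of 4.72 ± 0.43 is 26.4-fold (limma adjusted p = 0.000911). Both GC arrays stood far above every untreated array. Bcl6 (chr16:23965160-23965219, mm9) moved less: its levels were 0.76 and 0.78 in GC B cells, against -0.93 on the ATMWT array and -0.67, -0.62 and -0.63 on the ATMKO arrays, a difference of 1.55 ± 0.20 (limma adjusted p = 0.00275).

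Receptors that hold cells in the germinal centre and the death receptor Fas moved with them. S1pr2, a sphingosine phosphate receptor that confines cells to the follicle centre, lay at 2.16 and 1.73 on the GC arrays, against -1.42 on the ATMWT array and -1.76, -2.42 and -2.49 on the ATMKO arrays (difference 3.77 ± 0.37). Fas lay at 0.94 and 0.96 in GC B cells, against -2.12 on the ATMWT array and -2.42, -2.52 and -2.42 on the ATMKO arrays (3.24 ± 0.19). Neither gene had an untreated array near the GC arrays. Rgs13, which dampens chemokine receptor signalling, differed by 3.83 ± 0.15, and the ephrin Efnb1 by 3.87 ± 0.37. The transcription factors Mybl1 (3.68 ± 0.18) and Mef2b (3.17 ± 0.21), an activator of Bcl6, were higher too, as were Pax5 (0.96 ± 0.13) and the BCL6 partner Bach2 (0.77 ± 0.14). All of these passed limma's test, with adjusted p-values of at most 0.0083. Bach2 and Pax5 each lost the call in 1 of 21 alternatives, and Bcl6 in 1 of 20. The 4 members that passed as lower were Cd81, Ebf1 (-1.53 ± 0.14), Lmo2 and Gcnt2. Irf8 and Il21r did not pass, with differences of 0.15 ± 0.17 and -0.14 ± 0.23.

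**Figure D2:**
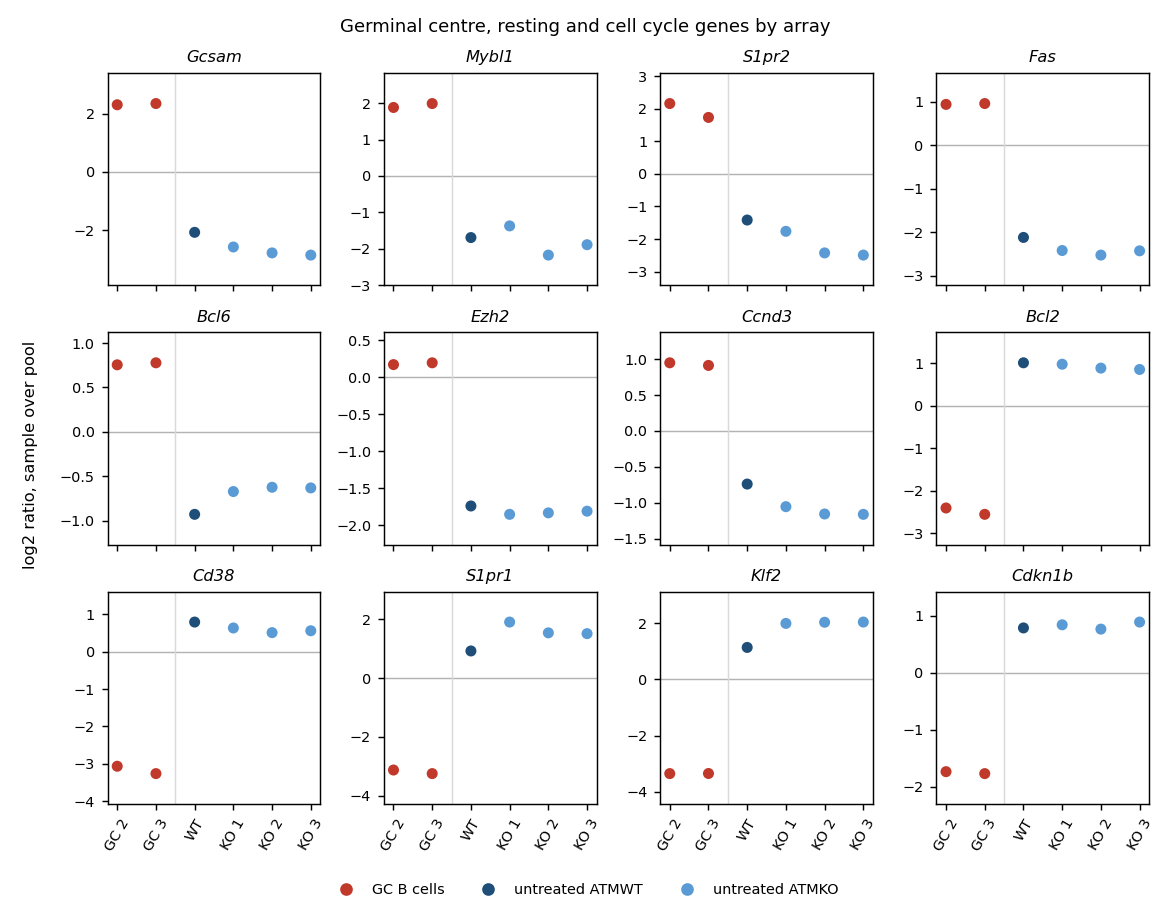
Each panel shows 1 gene's log2 ratio of sample over pool on the 2 GC arrays (red), the ATMWT array (dark blue) and the 3 ATMKO arrays (light blue), 1 point an array. Gcsam, Mybl1, S1pr2, Fas, Bcl6, Ezh2 and Ccnd3 have both GC points above all untreated points, and Bcl2, Cd38, S1pr1, Klf2 and Cdkn1b have both below.

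The dark zone and light zone lists went opposite ways. Of 15 dark zone genes 11 passed as higher and 2 as lower (median difference 2.59), and of 16 light zone genes 1 passed as higher and 7 as lower (median -0.99). Of the light zone genes 2 passed as lower under median centring. Most of the dark zone genes are also cell division genes: Cenpe, a kinetochore motor, differed by 3.56 ± 0.21 and Cdc20, an activator of the anaphase-promoting complex, by 3.09 ± 0.13. Polh, the error-prone polymerase eta, differed by 2.59 ± 0.16. The 2 dark zone genes that passed as lower were Foxp1 and Cxcr4. Cxcr4, the chemokine receptor that draws cells to the dark zone, lay at -1.54 and -1.59 on the GC arrays, against 0.40 on the ATMWT array and 1.76, 1.91 and 1.99 on the ATMKO arrays. The GC arrays were below all untreated arrays, and the untreated arrays were split by genotype; the difference was -2.71 ± 0.57 (limma adjusted p = 0.0144).

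For the light zone genes Cd83 and Cd86 the result depended on which untreated sample was used. Cd83, a light zone surface marker, lay at -1.02 and -1.04 in GC B cells, against -1.17 on the ATMWT array and 1.96, 2.11 and 1.90 on the ATMKO arrays. GC B cells were thus next to the ATMWT array and far below the ATMKO arrays. The difference was 0.14 against ATMWT, -3.02 against ATMKO and -1.44 ± 1.19 against both (limma adjusted p = 0.378). Cd86, a ligand for CD28 on T cells, lay at -0.03 and -0.05 in GC B cells, against -1.33 on the ATMWT array and 0.12, 0.18 and 0.23 on the ATMKO arrays. GC levels lay between the 2 genotypes, with differences of 1.29 against ATMWT and -0.22 against ATMKO (0.53 ± 0.58 against both, limma adjusted p = 0.496). Against single samples the list's median difference was -0.75 for ATMWT and -1.21 for ATMKO.

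Genes of antibody gene mutation and repair were mostly higher. In the mutation and switch recombination list 17 of 29 genes passed as higher and 1 as lower (median 0.83), and in the homologous recombination and damage signalling list 15 of 20 as higher and 1 as lower (median 1.57). Hmces, which shields abasic sites in single-stranded DNA, lay at 1.47 and 1.51 on the GC arrays, against -1.60 on the ATMWT array and -1.80, -1.88 and -1.85 on the ATMKO arrays (difference 3.21 ± 0.22). Exo1, the exonuclease of mismatch repair, lay at 1.37 and 1.32 in GC B cells, against -1.34 on the ATMWT array and -1.54, -1.41 and -1.39 on the ATMKO arrays (2.74 ± 0.14). GC and untreated arrays did not overlap for either gene. The 1 lower member of the first list was Ung, a uracil glycosylase: it lay at 0.14 and 0.08 in GC B cells, against 0.74 on the ATMWT array and 0.88, 0.90 and 0.87 on the ATMKO arrays, a difference of -0.70 ± 0.14 (limma adjusted p = 0.0122) that no longer passed under median centring. Among recombination genes, Rad54l (2.82 ± 0.15), a DNA translocase, the replication checkpoint mediator Clspn (2.65 ± 0.16), and Fanci (2.63 ± 0.13) and Brip1 (2.51 ± 0.14) of the Fanconi anaemia pathway differed most. A second probe of Fanci differed by 0.26. Atr was the 1 lower member of the recombination list.

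Cell division genes were higher with few exceptions. All 25 mitosis genes passed as higher (median 2.63), as did 27 of 29 DNA replication genes with none lower (median 1.86); Pcna and Cdt1 did not pass. Ccnb1, the mitotic cyclin, lay at 0.82 and 0.84 on the GC arrays, against -1.91 on the ATMWT array and -1.95, -2.02 and -2.14 on the ATMKO arrays, a difference of 2.80 ± 0.14 or 6.97-fold (limma adjusted p = 0.000168). Mki67, the proliferation antigen, lay at 1.20 and 1.19 in GC B cells, against -1.64 on the ATMWT array and -1.76, -1.85 and -1.98 on the ATMKO arrays (2.94 ± 0.17). Both genotypes of untreated B cells sat at about the same low level. Kif20a (3.16 ± 0.18) and Kif23 (2.98 ± 0.16), kinesins of the central spindle, were in the same range. The replication factors Gins1 and Mcm10 differed by 2.84 ± 0.15 and 2.84 ± 0.13, and E2f1, a transcription factor for replication genes, by 2.46 ± 0.13.

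Promoter sequence is shown for 1 gene each of the mitosis, DNA replication and cholesterol synthesis lists, lists whose members were mostly higher together and for which promoter motifs are well known. Sequences are 250 bases ending just before the RefSeq start site in build GRCm38.p6, read 5′ to 3′ on the gene's strand. Each is a member that passed as higher and whose bases shown hold the letters marked. The choice was made among part of each list, and none is the member with its list's largest difference. Among mitosis genes, Cenpe (3.56) and Kif20a (3.16) differed more than Cdc20 (3.09) and are not shown. Capitals mark TTTGAA (the cell cycle gene homology region, CHR) and CCAAT (the CCAAT box) in Cdc20, at chr4:118437344-118437593 on the minus strand; GCGGGAA (the core of an E2F site) in Cdc6, a replication licensing factor, at chr11:98907901-98908150 on the plus strand; and CCAAT in Cyp51, a sterol demethylase, at chr5:4104698-4104947 on the minus strand.
Cdc20: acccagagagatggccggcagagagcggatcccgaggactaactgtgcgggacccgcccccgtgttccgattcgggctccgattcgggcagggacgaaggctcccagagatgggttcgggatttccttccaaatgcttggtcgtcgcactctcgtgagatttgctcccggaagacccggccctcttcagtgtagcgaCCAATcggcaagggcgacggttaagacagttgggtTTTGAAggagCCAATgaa
Cdc6: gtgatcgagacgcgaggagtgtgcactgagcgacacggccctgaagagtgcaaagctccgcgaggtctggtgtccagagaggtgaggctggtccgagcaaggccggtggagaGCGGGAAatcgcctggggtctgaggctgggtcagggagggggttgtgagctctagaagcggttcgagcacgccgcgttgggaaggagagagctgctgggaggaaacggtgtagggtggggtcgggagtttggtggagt
Cyp51: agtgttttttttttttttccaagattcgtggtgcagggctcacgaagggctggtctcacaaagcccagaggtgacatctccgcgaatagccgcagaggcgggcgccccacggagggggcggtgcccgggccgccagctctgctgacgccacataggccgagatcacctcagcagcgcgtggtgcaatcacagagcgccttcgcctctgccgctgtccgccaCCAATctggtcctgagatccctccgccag
The CHR letters of Cdc20 end 13 bases before its start, between its CCAAT boxes. Windows of 250 bases before to 50 after each start were searched on both strands for every tested gene that had one, 11699 of 22142. TTTGAA was in the windows of 16 of the 22 mitosis genes with a window (72.7%), 4 of 24 replication genes (16.7%) and 15.0% of all 11699 genes. GCGGGAA was in 9 of 24 replication genes (37.5%), none of the mitosis genes and 8.83% of all. CCAAT was in 18 of 22 mitosis genes (81.8%), 14 of 24 replication genes (58.3%), 16 of 16 cholesterol genes (100.0%) and 42.5% of all. Only 1 exact form of the sterol regulatory element SRE-1 was searched for. It was in the windows of 6 of all 11699 genes (0.0513%) and of no cholesterol gene. A form this rare would hardly be met in 16 windows. Its absence there does not show whether these promoters hold other forms of the element. A match is a description of these windows only.

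D cyclins, which open the way into S phase, did not move together. Ccnd3 lay at 0.95 and 0.91 on the GC arrays, against -0.74 on the ATMWT array and -1.05, -1.16 and -1.16 on the ATMKO arrays, a difference of 1.86 ± 0.19 (limma adjusted p = 0.00134). Ccnd2 lay at -2.84 and -2.79 in GC B cells, against -0.99 on the ATMWT array and -0.78, -0.86 and -0.91 on the ATMKO arrays (-1.90 ± 0.14). GC and untreated arrays did not overlap for either cyclin, on opposite sides. Ccnd1 fell too (-2.56 ± 0.19). Cdkn1b, the inhibitor p27 that holds resting lymphocytes out of cycle, lay at -1.74 and -1.77 in GC B cells, against 0.78 on the ATMWT array and 0.84, 0.76 and 0.89 on the ATMKO arrays (-2.56 ± 0.13). Rb1, the retinoblastoma pocket protein, differed by -2.96 ± 0.14, whereas Cdkn2a, which encodes p16 and p19ARF, was higher by 2.09 ± 0.17. A second probe of Cdkn2a, not well above background on any of these arrays, differed by 0.22. Cdkn2a lost the call in 1 of 21 alternatives. In all, 5 of the 13 D cyclins and inhibitors passed as higher and 6 as lower (median 0.00).

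**Figure D3:**
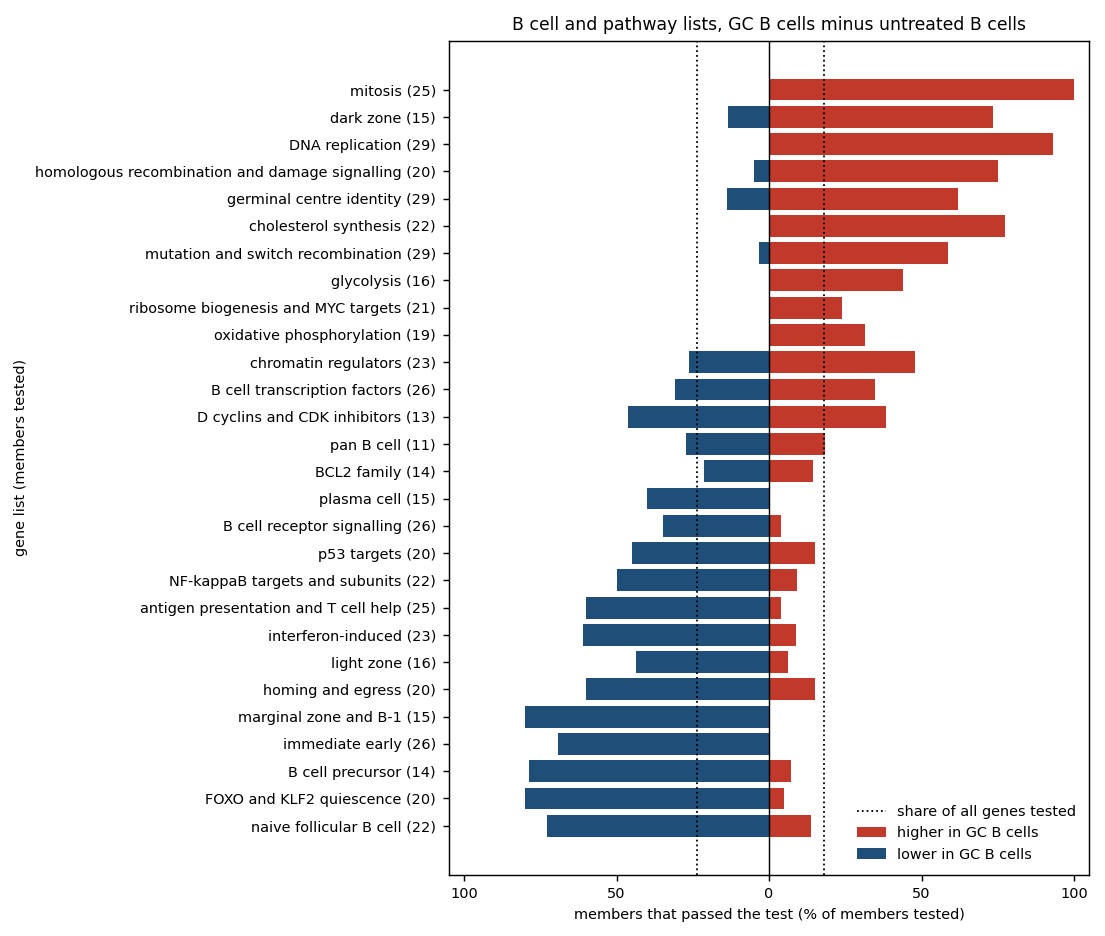
Bars show, for each gene list, the share of its tested members that passed limma's test as higher in GC B cells (red, to the right) or lower (blue, to the left), in percent, with the number of tested members in brackets. Dotted lines mark the shares over all genes, 17.9% higher and 23.6% lower; lists of cell division lie at the top and those of resting, recirculating B cells at the bottom.

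Genes of resting B cells were mostly lower in GC B cells. Of 22 naive follicular genes 16 passed as lower and 3 as higher (median -2.51), of 20 FOXO and KLF2 quiescence genes 16 as lower and 1 as higher (median -2.47), and of 15 marginal zone and B-1 genes 12 as lower and none as higher (median -1.33). Klf2, the quiescence factor that drives S1pr1, lay at -3.35 and -3.34 in GC B cells, against 1.14 on the ATMWT array and 1.99, 2.03 and 2.04 on the ATMKO arrays, a difference of -4.93 ± 0.38 (30.4-fold lower, limma adjusted p = 0.000495). S1pr1, the receptor for exit into blood and lymph, lay at -3.12 and -3.25 in GC B cells, against 0.93 on the ATMWT array and 1.91, 1.54 and 1.52 on the ATMKO arrays (-4.48 ± 0.30). For both genes every GC array stood far below every untreated array. T cells also express them, and T cell markers moved the same way (16 of 17 lower, median difference -3.30; median levels of -2.29 and -2.35 on the GC arrays and 0.61 to 0.91 on the untreated arrays); their part in these differences was not tested. In RNA of a whole population, fewer cells of a type and less RNA per cell cannot be told apart.

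Surface markers by which GC and follicular B cells are sorted divided as well. Cd38, an ectoenzyme that mouse GC B cells lose, lay at -3.06 and -3.26 on the GC arrays, against 0.79 on the ATMWT array and 0.63, 0.51 and 0.56 on the ATMKO arrays, a difference of -3.84 ± 0.18 (14.3-fold lower, limma adjusted p = 0.000162). Cr2, the complement receptor CD21, lay at -0.25 and -0.26 in GC B cells, against 2.14 on the ATMWT array and 2.02, 2.08 and 2.00 on the ATMKO arrays (-2.34 ± 0.16). No untreated array came near the GC arrays for either. Fcer2a, or CD23, fell by less, -0.87 ± 0.20, and no longer passed under median centring or with the scanner's log ratio. The higher members of the naive list were Cd22, Pax5 and Fcrl1. Cd22, an inhibitory coreceptor, lay at 1.36 and 1.44 in GC B cells, against -1.65 on the ATMWT array and -1.57, -1.47 and -1.37 on the ATMKO arrays, the highest difference of that list at 2.95 ± 0.14. Among marginal zone genes, Plac8 (-5.81 ± 0.27), Cd1d1 (-5.23 ± 0.16), which presents lipids to NKT cells, Cd5 (-4.04 ± 0.14) and Notch2 (-3.87 ± 0.14), the receptor that marginal zone B cells need, differed most. A second probe of Notch2, not well above background on either GC array, differed by -0.44. Cd5 is also a T cell marker.

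Homing genes were mostly lower: 12 of 20 homing and egress genes passed as lower and 3 as higher (median -1.29). The 3 higher were Rgs13, S1pr2 and Rgs1. Ccr7, the receptor that draws lymphocytes to the T cell zone (probe at chr11:99005551-99005610, mm9), lay at -5.89 and -5.88 on the GC arrays, against -0.53 on the ATMWT array and 2.15, 2.40 and 2.19 on the ATMKO arrays. GC B cells were below both genotypes, with a difference of -5.36 against ATMWT and -8.13 against ATMKO; against both it was -6.74 ± 1.04 (limma adjusted p = 0.00519). Gpr183, or EBI2, which guides activated B cells to the follicle's edge, lay at -2.49 and -2.79 in GC B cells, against 0.29 on the ATMWT array and 1.70, 2.07 and 1.99 on the ATMKO arrays (-3.75 ± 0.63). Ccr6 differed by -3.94 ± 0.28. Cxcr5, the receptor for the follicle, did not pass: its levels were -0.35 and -0.36 in GC B cells, against 0.06 on the ATMWT array and 1.13, 1.20 and 1.13 on the ATMKO arrays (-0.96 ± 0.43, limma adjusted p = 0.128). Its difference was -1.51 without the ATMWT array and -0.42 without the ATMKO sample.

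Genes that antigen receptor signals and mitogens induce at once were lower in GC B cells than in either untreated sample. Of 26 immediate early genes 18 passed as lower and none as higher (median -1.67; -1.52 against ATMWT and -1.86 against ATMKO), and Egr3 and Nr4a3 were not well above background on either GC array. Myc, the growth regulator, lay at -1.41 and -1.44 on the GC arrays, against 0.44 on the ATMWT array and 2.02, 1.94 and 1.99 on the ATMKO arrays. Nr4a1, an orphan nuclear receptor used as a reporter of antigen receptor signals, lay at -3.03 and -3.04 in GC B cells, against 0.11 on the ATMWT array and 3.02, 3.39 and 3.20 on the ATMKO arrays. Both genes were lowest in GC B cells, intermediate on the ATMWT array and highest on the ATMKO arrays, with differences of -2.63 ± 0.59 and -4.69 ± 1.16 (limma adjusted p = 0.0179 and 0.0248). Cd69, an early activation antigen, had that order too (-2.77 ± 0.68). Of 21 alternatives, Cd69 lost the call in 3 (limma adjusted p up to 0.0891), Nr4a1 in 2 (up to 0.0617) and Myc in 1 (0.0517). Egr1, an early growth response factor, did not divide the genotypes: it lay at -0.94 and -0.91 in GC B cells, against 0.78 on the ATMWT array and 0.96, 0.94 and 1.03 on the ATMKO arrays (-1.80 ± 0.17). In ATMKO cells given anti-IgM, levels at 3, 6 and 24 h were 2.03, -0.03 and -1.95 for Nr4a1 and 0.48, 0.60 and -1.72 for Myc. These were below the untreated ATMKO arrays, whereas Egr1 was above them at 3 h (1.66). How far the untreated cells were activated was not tested. With 1 ATMWT array, genotype, slide, preparation and sex cannot be told apart in the gap between the untreated samples. Sex-linked genes are given at the end.

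**Figure D4:**
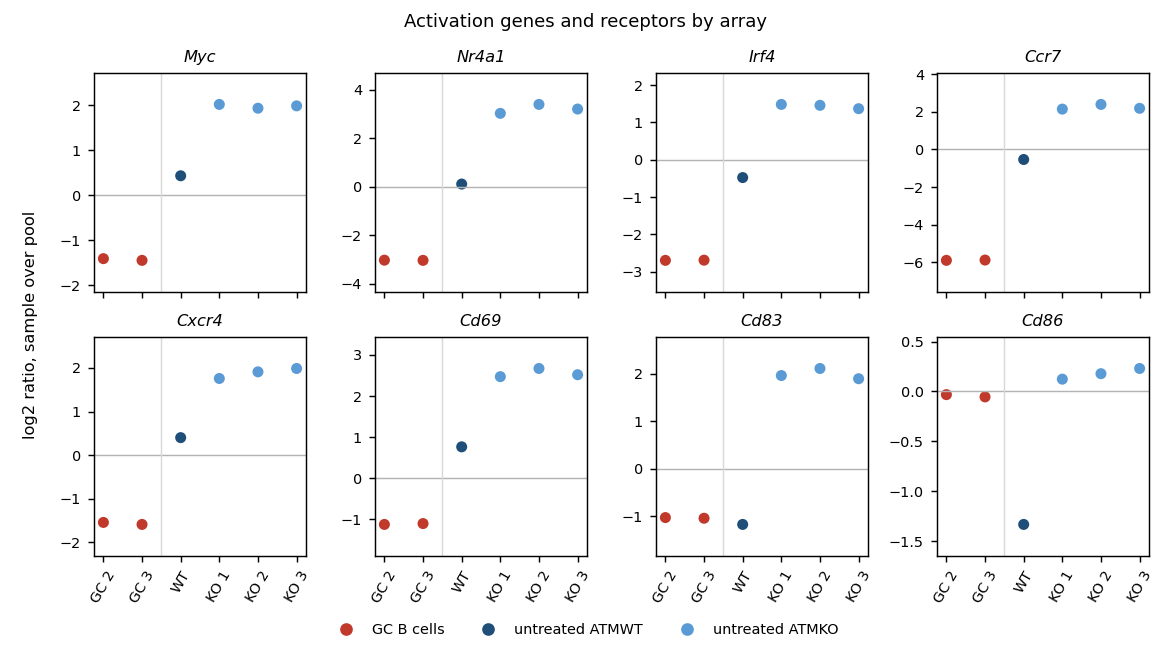
Each panel shows 1 gene's log2 ratio of sample over pool on the 2 GC arrays (red), the ATMWT array (dark blue) and the 3 ATMKO arrays (light blue). For Myc, Nr4a1, Irf4, Ccr7, Cxcr4 and Cd69 the ATMWT point lies between the GC and the ATMKO points, for Cd83 it lies beside the GC points, and for Cd86 it lies below all others.

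The B cell receptor pathway moved little. Of 26 receptor signalling genes 1 (Cd22) passed as higher and 9 as lower (median -0.37), but median centring gave 7 higher and 1 lower with a median of 0.29, so that the list's direction turns with the scaling. The lower count was 5 with the scanner's log ratio. Vav3, a guanine exchange factor, differed by -2.58 ± 0.15 and Ptprc, the CD45 phosphatase, by -1.17 ± 0.13, which missed the threshold under median centring. Btk, the kinase after the receptor, did not pass (-0.31 ± 0.25, limma adjusted p = 0.373), nor did Malt1, a protease that relays receptor signals to NF-kappaB (-1.20 ± 0.39, limma adjusted p = 0.0595). Against ATMWT and ATMKO in turn, Btk differed by -0.59 and -0.03, and Malt1 by -0.70 and -1.70. Of 22 NF-kappaB subunits and targets 2 passed as higher and 11 as lower (median -0.82), or 2 and 4 under median centring (median -0.28). The 2 higher ones were Lta and Traf1. The chemokine Ccl3 (-2.68 ± 0.15) and the apoptosis inhibitor Birc3 (-1.45 ± 0.19) were among the lower ones.

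Plasma cell regulators were lower, and most of the list did not pass. In the plasma cell list 6 of 15 genes passed as lower and none as higher, with a median of -0.31 that turned to 0.18 under median centring. Irf4, which drives both activation and plasma cell fate, lay at -2.69 and -2.69 on the GC arrays, against -0.48 on the ATMWT array and 1.48, 1.46 and 1.37 on the ATMKO arrays, a difference of -3.17 ± 0.73 (limma adjusted p = 0.0193). Prdm1, the plasma cell repressor that BCL6 opposes, lay at -1.54 and -1.78 in GC B cells, against -0.36 on the ATMWT array and 0.67, 0.91 and 0.81 on the ATMKO arrays (-1.88 ± 0.46). Both genes again had the ATMWT array between GC and ATMKO. Of 21 alternatives, Prdm1 lost the call in 3 (limma adjusted p up to 0.2205) and Irf4 in 1, with GC repeat 1 averaged in (0.0584). Sdc1, the plasma cell surface marker CD138, did not divide the genotypes, with -2.26 and -2.33 in GC B cells, against 0.42 on the ATMWT array and 0.32, 0.09 and 0.23 on the ATMKO arrays (-2.61 ± 0.16).

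Precursor genes were lower too, 11 of 14 with 1 higher, Flt3 (median -1.79). Of these 14 genes 5 (Il7r, Igll1, Rag1, Rag2 and Vpreb2) were not well above background on either GC array. Il7r, a cytokine receptor subunit of precursor B cells and of T cells, was at least 24.9-fold lower (limma adjusted p = 9.27e-05). Kit differed by -4.30 ± 0.18, Sox4 by -4.05 ± 0.25, Lef1 by -3.26 ± 0.18 and Cd93 by -3.04 ± 0.21. Lef1 and Il7r are also expressed by T cells, whose markers moved the same way, and their part was not tested.

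Among the BCL2 family genes Bcl2 differed most. This inhibitor of mitochondrial cell death lay at -2.41 and -2.56 on the GC arrays, against 1.01 on the ATMWT array and 0.98, 0.89 and 0.86 on the ATMKO arrays, a difference of -3.44 ± 0.16 (10.9-fold lower, limma adjusted p = 0.000162). The untreated arrays of both genotypes lay close together and stood well above the GC arrays. The proapoptotic Bad was higher, at 0.89 and 0.81 in GC B cells, against -0.35 on the ATMWT array and -0.74, -0.69 and -0.67 on the ATMKO arrays (1.38 ± 0.18). Mcl1, an inhibitor that GC B cells depend on, differed by -0.85 ± 0.26 (limma adjusted p = 0.0458) and lost the call in 9 of 20 alternatives, among them the one without ATMKO repeat 1 (-0.83, limma adjusted p = 0.0517). Of 14 BCL2 family genes 2 passed as higher and 3 as lower (median -0.22), or 4 and 1 under median centring (median 0.20). The first counts are no more than the shares over all genes, 17.9% higher and 23.6% lower. Of 20 p53 targets 3 passed as higher and 9 as lower (median -0.63). The lower count was 4 under median centring and 5 with the scanner's log ratio. The 3 higher were Fas, the cell cycle gene Gtse1 (1.97 ± 0.13) and Rrm2b, and among the lower ones was the death receptor Tnfrsf10b (-1.68 ± 0.42).

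Antigen presentation genes were mostly lower, 15 of 25 with 1 higher, Slamf1 (median -0.88), or 8 and 2 under median centring (median -0.30). H2-Aa, an MHC class II chain, lay at -1.41 and -1.31 on the GC arrays, against 1.08 on the ATMWT array and 1.49, 1.28 and 1.25 on the ATMKO arrays (-2.57 ± 0.18). Cd274, the checkpoint ligand PD-L1, differed by -3.04 ± 0.62 and Cd84, a SLAM family adhesion receptor, by -2.28 ± 0.13. A second probe of Cd84 differed by -0.60. Cd40, which receives T cell help, differed by -0.88 ± 0.16 and missed the threshold under median centring. Il4ra, the interleukin-4 receptor, did not pass (0.15 ± 0.15). Interferon-induced genes followed, with 14 of 23 lower and 2 higher, Oasl2 and Stat2 (median -0.94). Xaf1 differed by -5.02 ± 0.28 on its brightest probe, but its second probe went the other way (difference 0.53), so its direction depends on the probe. Rsad2, which encodes viperin, was not well above background on either GC array and at least 6.95-fold lower (limma adjusted p = 0.000231). Macrophages and dendritic cells also express class II and interferon-induced genes, and their part was not tested. Macrophage markers moved the same way, whereas of 9 dendritic cell markers 5 passed as lower and 1 as higher (median -0.73).

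Among metabolic lists, cholesterol synthesis stood highest: 17 of 22 genes passed as higher and none as lower (median 1.28). Cyp51 lay at -0.34 and -0.39 in GC B cells, against -2.84 on the ATMWT array and -1.97, -2.23 and -2.19 on the ATMKO arrays (2.12 ± 0.29). GC and untreated arrays did not overlap. Idi1 and Sqle, earlier enzymes of the pathway, differed by 2.04 ± 0.25 and 1.90 ± 0.17. Glycolysis had 7 of 16 genes higher and none lower (median 0.47), with Tpi1 (1.84 ± 0.15), Gapdh (1.75 ± 0.14) and Pkm (1.59 ± 0.19) in front. Oxidative phosphorylation had 6 of 19 higher (median 0.33) and ribosome biogenesis and MYC targets 5 of 21 (median 0.34), with none lower in either. Under median centring the higher counts of these 3 lists came to 11, 16 and 14 and their medians to 1.26, 1.11 and 1.03. Over all genes 17.9% passed as higher, and the ribosome list's count without median centring is near that share. Sdhb, a subunit of succinate dehydrogenase, differed by 1.16 ± 0.14 and Nme1, a nucleoside diphosphate kinase, by 0.70 ± 0.13, with its other probes at -0.07 and 1.42.

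Chromatin regulators split, with 11 of 23 higher and 6 lower (median 0.31), or 3 lower under median centring. Ezh2, the methyltransferase of Polycomb repressive complex PRC2, lay at 0.17 and 0.19 on the GC arrays, against -1.74 on the ATMWT array and -1.85, -1.83 and -1.81 on the ATMKO arrays, a difference of 1.97 ± 0.15 (limma adjusted p = 0.000456). The maintenance methylation genes Uhrf1 (2.38 ± 0.13) and Dnmt1 (2.10 ± 0.20) and the helicase Hells (2.54 ± 0.19) rose, whereas the DNA demethylase Tet2 differed by -2.42 ± 0.22. Of 26 B cell transcription factors 9 passed as higher and 8 as lower (median 0.17). Foxo1, active in the dark zone, did not pass: it lay at 0.38 and 0.37 in GC B cells, against 0.51 on the ATMWT array and 0.77, 0.64 and 0.60 on the ATMKO arrays (-0.22 ± 0.14, limma adjusted p = 0.268), and its sign turned under median centring.

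The leading genes over the whole array were partly outside these lists. Among the annotated genes well above background on both GC arrays, Trim12a, a TRIM family gene on chromosome 7, differed most among those higher in GC B cells: it lay at 0.98 and 0.99 in GC B cells, against -4.57 on the ATMWT array and -3.75, -4.62 and -4.78 on the ATMKO arrays (44.2-fold, limma adjusted p = 8.82e-05). Rassf6 (4.89 ± 0.35), the primase subunit Prim2 (4.78 ± 0.21) and the nuclease Dnase1 (4.77 ± 0.17) came next. A second probe of Prim2 differed by 1.1. Ada, adenosine deaminase, lay at 1.57 and 1.55 in GC B cells, against -2.92 on the ATMWT array and -3.21, -3.29 and -3.36 on the ATMKO arrays (4.67 ± 0.25). On the lower side S100a8, a subunit of the neutrophil protein calprotectin, lay at -7.68 and -7.72 in GC B cells, against 1.51 on the ATMWT array and 1.61, 1.76 and 1.73 on the ATMKO arrays, a difference of -9.31 ± 0.15 (limma adjusted p = 8.82e-05). Camp (-8.97 ± 0.16), S100a9 (-8.21 ± 0.19), Chil3 (-8.14 ± 0.22), the granzyme Gzma (-7.23 ± 0.15) and lysozyme Lyz1 (-6.55 ± 0.16) followed. These are genes of neutrophils, cytotoxic lymphocytes and macrophages, and 17 of the 50 lower genes with the largest differences belong to the marker lists of other cell types.

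Most markers of cells other than B cells were lower in the GC samples. Over 8 such lists with 102 genes, 90 passed as lower and 3 as higher (median -2.97): 16 of 17 T cell, 6 of 9 follicular helper T cell, 11 of 11 NK cell, 16 of 17 macrophage and monocyte, 13 of 13 neutrophil, 14 of 15 erythroid and platelet, 5 of 9 dendritic cell and 9 of 11 stromal and follicular dendritic cell genes passed as lower. The 3 higher genes were Flt3, Tox and Tox2. By contrast 2 of 11 pan B cell genes passed as higher and 3 as lower (median -0.22, and 0.57 under median centring). Those counts are near the shares over all genes, 17.9% higher and 23.6% lower. In summed red signal, the neutrophil list came to 50440 to 53160 on the GC arrays, against 398200 to 452000 on the untreated arrays, and the T cell list to 25720 to 26380 on the GC arrays, against 65490 to 76750 on the untreated arrays. The pan B list came to 398500 to 409700 on the GC arrays, against 461400 to 493100 on the untreated arrays. For the dendritic cell list the ranges overlapped, 115200 to 117700 on the GC arrays and 109900 to 138800 on the untreated arrays.

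Every one of the 102 genes was well above background on all 4 untreated arrays, and 28 were not on either GC array, by the probe used for each. Other probes of Cd247 and Icos were above it on at least 1 GC array. Genes entered only if red or green was well above background on a share of 0.5 or more of the 11 arrays. Most of those arrays held splenic B cells, so this filter favours genes detected there. Markers such as Il21, Cd40lg and Xcr1 were on the array but not tested. The 28 genes at background in GC B cells include Cd8a and Gata3 of T cells, Ncr1, Eomes and Klrd1 of NK cells, and Mertk and Mrc1 of macrophages. Other markers stayed above it: 13 and 14 of 17 T cell genes and 11 of 13 neutrophil genes were detected on the GC arrays. Cd3d lay at -4.08 and -4.19 there, against 1.35 on the ATMWT array and 1.01, 1.09 and 1.1 on the ATMKO arrays. T cell genes were thus above background on the arrays of mice labelled as lacking CD3 epsilon. The part of these cells in the lower calls among the B cell lists was not tested.

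**Figure D5:**
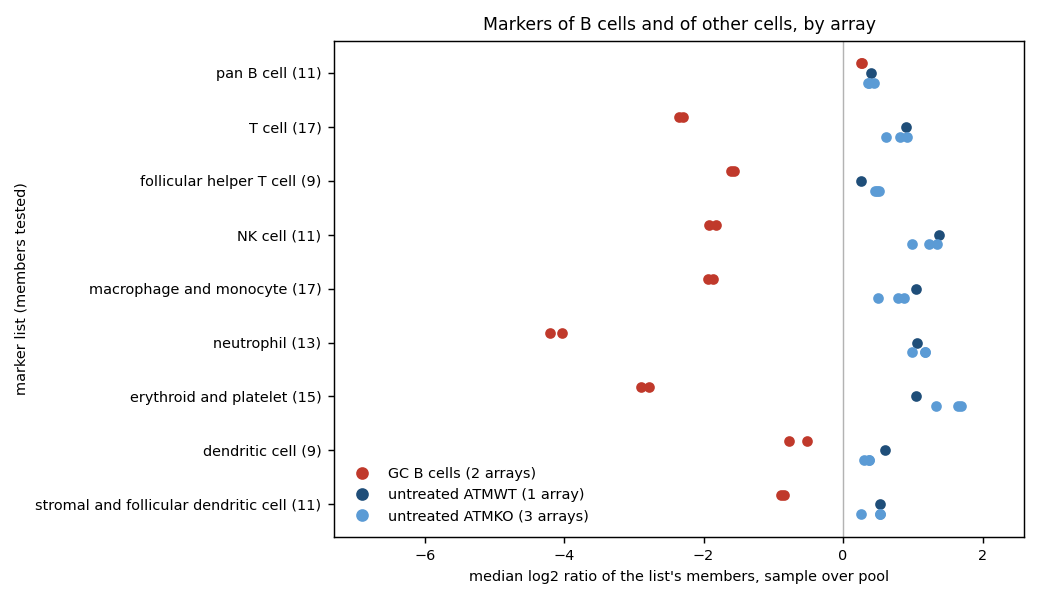
Points show the median log2 ratio of sample over pool of each marker list on the 2 GC arrays (red), the ATMWT array (dark blue) and the 3 ATMKO arrays (light blue), with the number of tested members in brackets. The pan B list lies between 0.25 and 0.45 on all 6 arrays, and the lists of other cells lie below 0 on the GC arrays and above 0 on the untreated arrays.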

How the data were processed

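Total RNA, extracted with TRIzol per the labels' protocols, was amplified and hybridised with the sample in Cy5 and the pool in Cy3 on every array used, with no dye swap, so dye bias cannot be told apart from the ratio's direction. Per the file headers, the authors' scanner files come from Agilent Feature Extraction 10.1.1.1 (9.1, and limma, per the submitters' processing notes) and hold each spot's mean and background intensity and a log10 ratio of red over green, dye-normalised by the scanner software. The log10 ratios of the deposited series matrix matched the scanner's within 0.0006 on 672017 of 672017 spots well above background in both channels. Dimmer spots were not compared. On the normal arrays the matrix had medians of -0.074 to 0.058. Intensity was corrected in limma 3.58.1 (R 4.3.3) by normexp with an offset of 50, normalised by loess within arrays with control and outlier spots at weight 0, and turned into log2 ratios. Those spots were then dropped and the spots of a probe averaged. Probes entered the model if red or green exceeded background well (the scanner's own call) on a share of 0.5 or more of the 11 arrays, and the brightest probe stood for a gene. Of 55681 probes 27235 (48.9%) were matched by accession to RefSeq, 2838 of them with an updated symbol; other probes kept the name in the files. Probe positions are in mm9 per the file headers; exon positions were not used here.

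The limma model had 5 means, 1 per state, with lmFit and eBayes and Benjamini-Hochberg adjustment over all genes. Where no array of a group was well above background, a fold is a bound: the mean of the brighter group against, on each array, the higher of the lowest signal well above background and the probe's own. The number of arrays limits precision. The p-values measure the spread between ATMWT and ATMKO samples of 1 state, which holds genotype and slide differences and may be technical in part. Genes were named by rule: Atm and Cd3e, the 10 largest passing differences each way among annotated genes above background with no overlap between arrays, up to 4 leading members of each list, and a set of well-known B cell genes. Others are named because a count was 5 or lower, or as examples at background, after their values were seen. The members, lists and named genes were chosen with earlier results of these data known. The alternatives covered background correction, scaling, the filter on dim probes, the probe rule, the samples in the model, slide and genotype terms, and leaving out each array or sample. The model was first tested on simulated data. Some genes are not reported here.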

Additional observations from a re-analysis of the deposited data

How the results depend on the processing

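With each GC or ATMKO array left out in turn, 8950 to 9347 genes passed, 3838 to 4046 higher and 5094 to 5379 lower. Counts without a whole untreated sample are not given, since the spread then comes from the anti-IgM pair alone. Median centring in place of loess left 3350 genes lower. Adding the lymphoma lines to the model gave 3698 genes, 1503 higher and 2195 lower. Within the slide that holds GC repeats 2 and 3 and ATMKO repeats 2 and 3, with arrays as units, 16394 passed (7516 higher, 8878 lower), where arrays of 1 sample count as replicates. Same-numbered arrays there did not deviate together (r = -0.04 over 22142 genes), so the numbers do not pair them; the replicate block gave 16032 (7320 higher, 8712 lower). Slide as a fixed block gave 10018, a genotype term 8888, only the 3 samples compared 6497, and GC repeat 1 averaged in 6621. Over the named genes, 3343 values kept direction and call, 80 lost and 31 gained the call, and 15 turned sign; of the lists' medians 549 stayed within the spread and 207 moved beyond it. The sign turned under median centring for Btk (0.24), Cd44 (0.13), Foxo1 (0.49) and Il21r (0.32), with slide as a block for Il4ra (-0.087), within the slide with or without the replicate block for Btk (0.030), Cd86 (-0.25) and Il4ra (-0.10), with GC repeat 1 averaged in for Irf8 (-0.091), without the ATMWT array for Cd86 (-0.22), and without the ATMKO sample for Cd83 (0.14) and Il21r (0.085). With the other untreated sample left out instead, the values were 1.29 for Cd86, -3.02 for Cd83 and -0.37 for Il21r. None of these 8 named genes passed in the comparison of the report. Of all 9174 genes that passed, 284 turned sign under median centring, where 6886 kept direction and call. With all probes of a gene averaged 51 turned sign, and with GC repeat 1 averaged in 46 of the 7830 tested there. In any other fit at most 15 did. The causes were not tested. Of the genes that passed as lower, 837 were not above background on the GC arrays by the probe used and were on all untreated arrays, so that their folds are bounds.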

Other observations

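Genes next to Trim12a on chromosome 7 were looked at after its value was seen. In the stretch between Hbb-bh1 and Trim12a with 300000 bases added on either side (chr7:110690209-111748558, mm9), 13 annotated genes were tested, of which 3 passed as higher and 4 as lower. Hbb-bh1, an embryonic globin gene, differed by 4.32 ± 0.21 and Trim34a by 2.97 ± 0.24, while the adult globin genes Hbb-bs and Hbb-bt differed by -6.25 ± 0.57 and -3.81 and the TRIM genes Trim30a and Trim30b by -1.23 and -2.75. Neighbouring members of these families, whose copies resemble each other and may share probe signal, thus went opposite ways.

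The labels give no sex, and sex-linked genes separated the arrays. Ddx3y, on chromosome Y, lay at -4.27 and -4.28 on the GC arrays, not well above background, against -0.09 on the ATMWT array and 1.80, 1.87 and 1.84 on the ATMKO arrays, and was at least 25.9-fold lower (limma adjusted p = 0.00603). Eif2s3y, its neighbour, was at least 48.2-fold lower. Xist, which silences an X chromosome in females, lay at 1.01 and 0.99 in GC B cells, against -0.31 on the ATMWT array and -1.04, -0.94 and -1.20 on the ATMKO arrays (1.68 ± 0.41, limma adjusted p = 0.0237). The ATMWT array lay between the others for all 3 genes. These genes were chosen after the data were seen, and sex and state cannot be told apart here.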
